A study of Mus musculus with 8 samples.

Results

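The miR-99/100 and miR-125 families were followed through small RNA sequencing of CD8+ T cells sorted from mouse spleen. The members were chosen by name: mmu-miR-99a-5p, mmu-miR-99b-5p, mmu-miR-100-5p, mmu-miR-125a-5p and mmu-miR-125b-5p. They are 5 of 1978 mature miRNA names in the deposited table, of which 877 had a count above 0, and all 5 passed the filter on low counts that left 382 miRNAs for testing. The 8 libraries form 4 groups of 2, which are mCre MP, WT MP, mCre TN and WT TN. WT and mCre are the genotypes in the titles, and MP and TN are the subsets sorted by staining for CD8, CD4, CD44 and CD122. The design text writes VM where the titles write MP. In this field TN usually means true naive cells, while VM means virtual memory cells, which look like memory cells without having met antigen. The title of the series links the samples to miR-29 and Cre, but the labels name neither the deleted sequence nor the promoter that drives Cre. The protocol covers adult and neonatal spleens, and sample ages are not stated in the labels. Each library came from 10000 sorted cells. Whether both libraries of a group were made from different mice is not stated, and p-values therefore rest on a spread between libraries that may be technical.

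A miRNA guides its protein partner to messenger RNAs mainly through its seed, the bases near its 5′ end, and miRNAs with one seed are counted as one family. The miR-125 family is the vertebrate counterpart of lin-4, the first miRNA described in Caenorhabditis elegans. The miR-99/100 and miR-125 genes stand in clusters that also hold a let-7 gene, and miR-99 and miR-100 have been reported to act on mTOR, a kinase of growth and metabolism. In human CD4+ T cells miR-125b has been described as abundant in naive cells and lower in memory cells, and in mouse bone marrow miR-125 members are known from blood stem cells.

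The mature strands are shown because the 5 members fall into 2 seed groups and because near-identical strands limit what counting can separate. Sequences and positions are from RefSeq (GRCm38.p6), written 5′ to 3′ with the seed, bases 2 to 8, in capitals. All 5 members were found there, as were 1679 of the 1978 names. miR-351-5p is shown because it carries the miR-125 seed from another locus.
mmu-miR-99a-5p: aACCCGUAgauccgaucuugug
mmu-miR-99b-5p: cACCCGUAgaaccgaccuugcg
mmu-miR-100-5p: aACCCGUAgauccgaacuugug
mmu-miR-125a-5p: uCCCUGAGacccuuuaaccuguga
mmu-miR-125b-5p: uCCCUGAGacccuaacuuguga
mmu-miR-351-5p: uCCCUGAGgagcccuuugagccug

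miR-99a-5p, miR-99b-5p and miR-100-5p share the seed ACCCGUA. miR-99a-5p and miR-100-5p differ by 1 substitution, U16A, counted from the 5′ end with the miR-99a base first, and their first 15 bases are the same. From miR-99a-5p to miR-99b-5p there are 4 substitutions, A1C, U11A, U16C and U21C. miR-125a-5p and miR-125b-5p share the seed CCCUGAG and are identical over their first 13 bases. Among the names in the table, 8 carry one of these 2 seeds, and 3 of them are not members. Of those 3, miR-351-5p had 265 counts over all libraries, and miR-6367 and miR-6394 had 0.

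The miR-99b and miR-125a hairpins lie close together on the plus strand of chromosome 17 in GRCm38 with GENCODE M21 annotation. Mir99b spans chr17:17830188-17830257 in an intron of Spaca6. Mirlet7e follows after 94 bases, in an intron of Spaca6 as well, and Mir125a follows Mirlet7e after 367 bases, at chr17:17830812-17830879, in an exon of Spaca6. The other 2 clusters are wide. On the plus strand of chromosome 16, Mir99a spans chr16:77598936-77599000 in an intron of the host transcript Mir99ahg, with Mirlet7c-1 656 bases on. Mir125b-2 starts 46522 bases beyond Mirlet7c-1, at chr16:77646273-77646343, also in an intron of Mir99ahg. On the plus strand of chromosome 9, Mir100 spans chr9:41531425-41531504 in introns of 3110039I08Rik and Gm49317, and Mir125b-1 spans chr9:41581926-41582002. Mirlet7a-2 lies between them, 5211 bases from Mir100 and 45114 bases from Mir125b-1. Mature miR-125b-5p is encoded at both wide clusters, so its counts cannot be assigned to chromosome 9 or chromosome 16.

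Library totals ran from 1936597 to 5230975 counts, and the let-7 family held 42.6% to 68.7% of them. The miR-29 family, named in the series title, set 2 libraries apart. Its summed level, in unscaled reads per 1000000 miRNA counts (RPM), was 774 and 1320 in mCre MP, 3669 and 11360 in WT MP, 1691 and 15900 in mCre TN, and 3540 and 770 in WT TN. The library labelled mCre TN replicate 2 thus had the highest value of all 8, and the library labelled WT TN replicate 2 the lowest, which is the reverse of the order of mCre and WT in MP. Whether these 2 libraries were exchanged was not tested. The members' fitted changes that rest on TN libraries, and some of their ratios, are therefore given with and without these 2 doubtful TN libraries. Lymphocyte miRNAs such as miR-150-5p, miR-142a and miR-342-3p were present throughout, with a list of 6 summing to 54150 to 123700 RPM in MP and 46630 to 169900 in TN. The myeloid list of 2 miR-223 strands summed to 1.40 to 13.7 RPM in MP and 6.94 to 10.3 in TN. The endothelial and stromal list of 8 summed to 35.0 to 113 in MP and 22.2 to 62.1 in TN, the erythroid list of 4 to 75.3 to 138 and 43.6 to 92.4, and the blood progenitor list of 5, in which miR-196b-5p was at 0, to 94.4 to 149 and 32.2 to 96.6. An epithelial list of 7 summed to 1985 to 4266 in MP and 1297 to 3922 in TN. The part these lists have in the results was not tested.

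The 5 members together held a small share of the miRNA counts, and that share was lower in every MP library than in every TN library. In unscaled RPM, the sum was 92.5 and 117 in mCre MP, 134 and 144 in WT MP, 396 and 362 in mCre TN, and 338 and 376 in WT TN. No MP library reached the lowest TN library. The means were 122 ± 22.6 in MP and 368 ± 24.6 in TN (SD over 4 libraries each), a ratio of 0.331, or 0.311 when the let-7 family was left out of the denominator. By seed, the miR-99/100 sum was 54.2 to 79.8 in MP and 179 to 286 in TN, and the miR-125 sum without miR-351-5p was 38.3 to 70.7 in MP and 111 to 183 in TN. In bulk RNA, fewer cells that hold a miRNA and less of it per cell cannot be told apart.

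**Figure D1:**
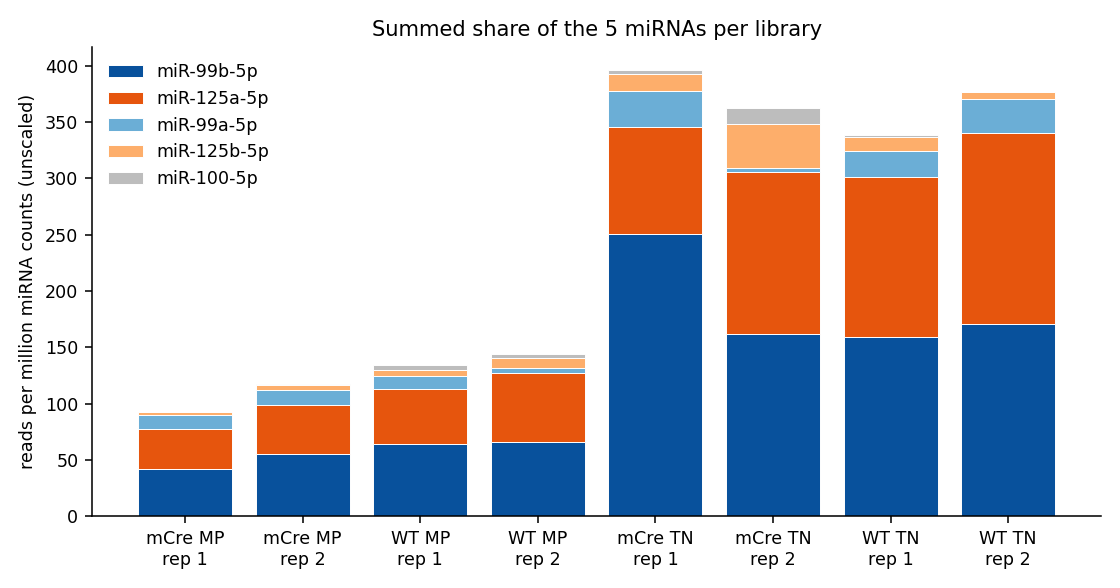
Stacked bars give the unscaled RPM of each of the 5 members in each library. The 4 MP bars end between 92.5 and 144 and the 4 TN bars between 338 and 396, with miR-99b-5p and miR-125a-5p filling most of every bar.

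The cluster on chromosome 17 supplied most of these reads. All 5 strands are 22 to 24 bases long, so their levels need no correction for length. miR-99b-5p held a median of 46.2% and miR-125a-5p 39.1% of the 5-member sum over the 8 libraries. miR-99a-5p held 7.94%, miR-125b-5p 3.73% and miR-100-5p 0.876%. Within the miR-99/100 seed, miR-99b-5p made up a median of 85.8% (range 76.7% to 90.4%). Within the miR-125 pair, miR-125a-5p made up 91.2%, with the lowest share, 78.5%, in the library labelled mCre TN replicate 2 and a highest share of 96.5%. Among the 382 tested miRNAs, ordered by level in each library, miR-99b-5p ranked 99 to 147 and miR-125a-5p 100 to 159. miR-99a-5p ranked 160 to 311, miR-125b-5p 167 to 302 and miR-100-5p 219 to 354. Within libraries, miR-99b-5p ranked above miR-125a-5p in 8 of 8, miR-125a-5p above miR-99a-5p in 8 of 8, and miR-125b-5p above miR-100-5p in 8 of 8. miR-99a-5p ranked above miR-125b-5p in 6 of 8, so the order of these neighbours was not the same in every library.

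Fractional values in the table bear on the 2 near-identical strands. All values of miR-99b-5p and miR-125a-5p were whole numbers to within 0.011, which was true of 62.5% of the values above 0 of miR-99a-5p and 57.1% of those of miR-100-5p. The deposited expected counts of miR-99a-5p were 27 and 41 in mCre MP, 37 and 15.5 in WT MP, 163 and 10 in mCre TN, and 69.5 and 58.5 in WT TN. Those of miR-100-5p were 0 and 3 in mCre MP, 16 and 14.5 in WT MP, 19 and 40 in mCre TN, and 4.5 and 0.5 in WT TN. Values with a fraction of 0.5 occur for both strands in the same 3 libraries, so part of the reads may have been divided between them, and the split between miR-99a-5p and miR-100-5p is uncertain. miR-125b-5p stands in 2 rows with nearly equal values, which were summed.

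The comparison of MP with TN over both genotypes asks how the memory-like subset differs from the naive one. miR-99b-5p and miR-125a-5p, the neighbours on chromosome 17, were lower in all 4 MP libraries than in all 4 TN libraries. Their fitted differences came to about a 2.9-fold and a 2.6-fold lower level, but neither passed an adjusted p of 0.05 in the edgeR quasi-likelihood test. The other 3 members had lower mean levels in MP with overlapping libraries.

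In counts per 1000000 after TMM scaling (CPM), miR-99b-5p was at 47.1 and 65.4 in mCre MP, 56.7 and 70.0 in WT MP, 218 and 164 in mCre TN, and 128 and 186 in WT TN. Every MP library was below every TN library. The mean was 59.8 ± 10.1 CPM in MP and 174 ± 37.7 CPM in TN (SD over 4 libraries each), with a log2 change of -1.54 ± 0.36 (SE) and an edgeR adjusted p of 0.0692 over all 382 miRNAs. By p it ranked 12 of 382. Without both doubtful TN libraries, the log2 change was -1.64 and the edgeR adjusted p 0.0143, which is past the threshold. That run, filtered anew, called 49 of 433 miRNAs, beside 9 of 382 with all libraries. An exchange of the doubtful libraries would change their genotype but leave both in TN. Without only the library labelled mCre TN replicate 2, the log2 change of miR-99b-5p was -1.74 with an edgeR adjusted p of 0.104. Without only the library labelled WT TN replicate 2, it was -1.54 with an edgeR adjusted p of 0.0264.

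miR-125a-5p was at 40.2 and 52.6 CPM in mCre MP, 44.0 and 66.0 in WT MP, 82.6 and 146 in mCre TN, and 115 and 185 in WT TN. The groups did not overlap here either, and the lowest TN library was mCre TN replicate 1. The mean was 50.7 ± 11.4 CPM in MP and 132 ± 43.6 CPM in TN (SD over 4 libraries each). The log2 change was -1.37 ± 0.38 (SE) with an edgeR adjusted p of 0.123, at rank 18 of 382. Without both doubtful TN libraries the log2 change was -1.08 and the edgeR adjusted p 0.0713. Without only the library labelled WT TN replicate 2 it was -1.26 with an edgeR adjusted p of 0.0472. miR-99b-5p then had -1.54 and 0.0264, so that both passed, in a run that called 41 of 437 miRNAs.

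The rarer miR-125b-5p was at 3.18 and 4.67 CPM in mCre MP, 4.59 and 9.54 in WT MP, 13.6 and 39.9 in mCre TN, and 9.91 and 6.76 in WT TN. WT MP replicate 2 lay above the library labelled WT TN replicate 2, so the subsets overlapped. The mean was 5.50 ± 2.78 CPM in MP and 17.5 ± 15.1 CPM in TN, with a log2 change of -1.48 ± 0.75 (SE) and an edgeR adjusted p of 0.470. miR-99a-5p had 14.3 and 16.0 CPM in mCre MP, 9.997 and 4.36 in WT MP, 27.1 and 3.47 in mCre TN, and 18.7 and 32.7 in WT TN. Its lowest value was in the library labelled mCre TN replicate 2, below all MP libraries, and its log2 change was -0.92 ± 0.75 (SE) with an edgeR adjusted p of 0.717. miR-100-5p had 0 and 1.17 CPM in mCre MP, 4.32 and 3.82 in WT MP, 3.16 and 13.9 in mCre TN, and 1.07 and 0 in WT TN. High and low libraries occurred in both subsets, and the log2 change was -0.49 ± 1.82 (SE) with an edgeR adjusted p of 0.917, which turned positive, to 0.72 at most, when mCre MP replicate 1, mCre MP replicate 2 or the library labelled mCre TN replicate 2 was left out. With both doubtful TN libraries left out, the log2 changes were -1.29 for miR-125b-5p, -1.23 for miR-99a-5p and -0.53 for miR-100-5p, with edgeR adjusted p of 0.200, 0.135 and 0.848.

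**Figure D2:**
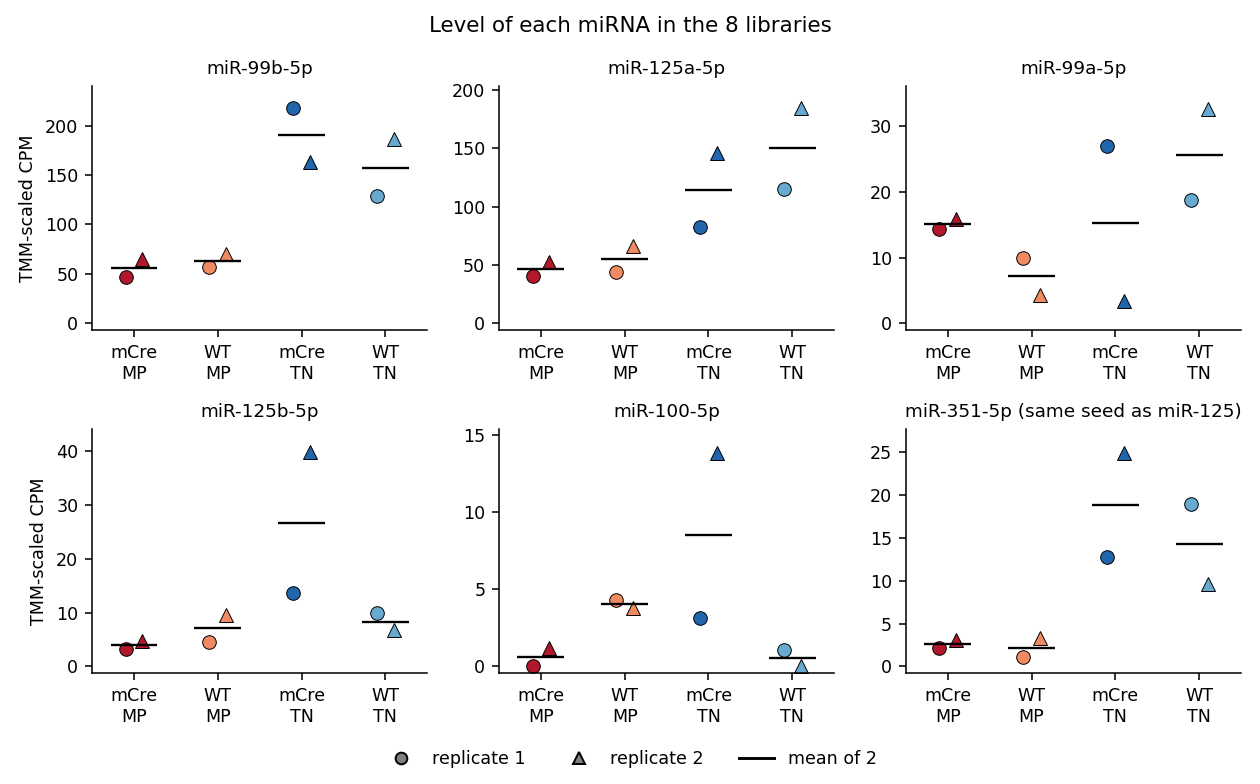
Each panel shows the TMM-scaled CPM of 1 miRNA on a linear axis, with circles for replicate 1, triangles for replicate 2 and a line at the mean of the 2 libraries of a group. miR-99b-5p and miR-125a-5p have all MP points below all TN points, with MP means of 59.8 and 50.7 CPM and TN means of 174 and 132 CPM, while the rarer members overlap and their extreme points are often the library labelled mCre TN replicate 2.

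Over all 382 miRNAs, 9 passed an adjusted p of 0.05 in this edgeR comparison, which is 2.36%, and 0 of the 5 members were among them. At an unadjusted p under 0.05 there were 50 miRNAs, of which 2 were members. DESeq2 called 26 miRNAs, among them miR-99b-5p with a log2 change of -1.64 and an adjusted p of 0.000191, and miR-125a-5p with -1.50 and 0.0101. All 5 members had a log2 change below 0, as did 50.5% of all tested miRNAs, and the members' median was -1.37 beside -0.04 over all. All 4 MP libraries lay below all 4 TN libraries for 2 of the 5 members and for 4.45% of all tested miRNAs. A list of 5 miRNAs of T cell activation, summed to 51590 to 95450 RPM in MP and 11380 to 28080 in TN, and 2 of the 5, miR-21a-5p and miR-146a-5p, passed in edgeR as higher in MP. The 4 guide strands of the miR-181 family, abundant in developing T cells, summed to 751 to 2308 RPM in MP and 4046 to 18400 in TN, and 1 of the 4, miR-181a-5p, passed as lower in MP. All 4 had a log2 change below 0 over both genotypes, while within WT 2 were higher and 2 lower in MP.

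miR-351-5p, which has the miR-125 seed but comes from a separate miRNA cluster on chromosome X, was at 2.12 and 3.12 CPM in mCre MP, 1.08 and 3.27 in WT MP, 12.8 and 24.96 in mCre TN, and 19.0 and 9.58 in WT TN. No MP library reached the lowest TN library. The log2 change was -2.76 ± 0.62 (SE) with an edgeR adjusted p of 0.0602, at rank 11 of 382. In DESeq2 it was -2.89 with an adjusted p of 0.000191, and without both doubtful TN libraries it was -2.84 with an edgeR adjusted p of 0.0143.

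Within WT cells, the same comparison gave lower values in MP for the chromosome 17 pair and for miR-99a-5p. The log2 changes were -1.31 ± 0.50 (SE) for miR-99b-5p, -1.45 ± 0.55 for miR-125a-5p and -1.83 ± 0.99 for miR-99a-5p, with edgeR adjusted p of 0.451, 0.451 and 0.663. For these 3 members both MP libraries lay below both TN libraries, which was so for 13.4% of all tested miRNAs. miR-125b-5p had -0.25 ± 0.82 with an edgeR adjusted p of 0.932. miR-100-5p went the other way, at 2.60 ± 1.44 with an edgeR adjusted p of 0.663, and both MP libraries were above both TN libraries, as for 26.2% of all tested miRNAs. Its pooled counts after rounding were 30 in WT MP (16 and 14.5 as deposited) and 4 in WT TN (4.5 and 0.5 as deposited). The ratio of these rounded counts per total count was 5.16 (exact 95% interval 1.82 to 20.1, counting error only). With WT TN replicate 1 alone it was 3.14 (1.11 to 12.3). Without WT TN replicate 1 the fitted log2 change of miR-100-5p was 6.74. The remaining WT TN library had a rounded count of 0 (0.5 as deposited), so that size is no bound. When both doubtful TN libraries were left out, the log2 changes in WT were -1.14 for miR-99b-5p, -1.19 for miR-125a-5p, -1.48 for miR-99a-5p, -0.62 for miR-125b-5p and 1.78 for miR-100-5p, with edgeR adjusted p from 0.307 to 0.808. No miRNA, that is 0%, passed in edgeR, while 31 had an unadjusted p under 0.05, 2 of them members, and DESeq2 called 10, none of them a member.

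Within mCre cells, 4 of the 5 members were lower in both MP libraries than in both TN libraries, and miR-99a-5p was not. This pattern held for 35.6% of all tested miRNAs. The log2 changes were -1.76 ± 0.50 (SE) for miR-99b-5p, -1.30 ± 0.55 for miR-125a-5p, -2.74 ± 0.87 for miR-125b-5p and -3.65 ± 1.49 for miR-100-5p, with edgeR adjusted p of 0.180, 0.229, 0.195 and 0.229. miR-99a-5p had -0.03 ± 0.95 with an edgeR adjusted p of 0.989. Its 2 mCre TN libraries lay on either side of both mCre MP libraries, and without mCre TN replicate 1 the value was 2.05. Pooled counts of miR-100-5p were 3 in mCre MP and 59 in mCre TN, a ratio per total count of 0.0797 (exact 95% interval 0.016 to 0.245), and 40 of the 59 came from the library labelled mCre TN replicate 2. Those of miR-125b-5p were 18 in mCre MP and 197 in mCre TN, a ratio of 0.143 (0.0831 to 0.232), with 115 of the 197 from that library. Against mCre TN replicate 1 alone the ratios were 0.159 (0.0301 to 0.539) for miR-100-5p and 0.221 (0.125 to 0.371) for miR-125b-5p. Leaving out both doubtful TN libraries gave log2 changes of -1.91 for miR-125b-5p, -2.35 for miR-100-5p, -0.97 for miR-125a-5p and -0.98 for miR-99a-5p, with edgeR adjusted p from 0.181 to 0.421. Leaving out only the library labelled mCre TN replicate 2 gave -2.36 for miR-100-5p, and leaving out mCre MP replicate 2 gave -7.81, with the remaining mCre MP library at 0 counts. Again 0% passed in edgeR, with 82 miRNAs at an unadjusted p under 0.05, 4 of them members. DESeq2 called 41, including miR-99b-5p with an adjusted p of 0.0353 and miR-125b-5p with 0.0315. In edgeR, the log2 change of miR-99b-5p was -2.08 without both doubtful TN libraries, with 1 mCre TN library left. It was -1.87 without only WT TN replicate 1 and -1.81 without only the library labelled WT TN replicate 2. The WT TN libraries are not compared here, and leaving 1 out alters only the shared spread, the scaling and the filter.

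**Figure D3:**
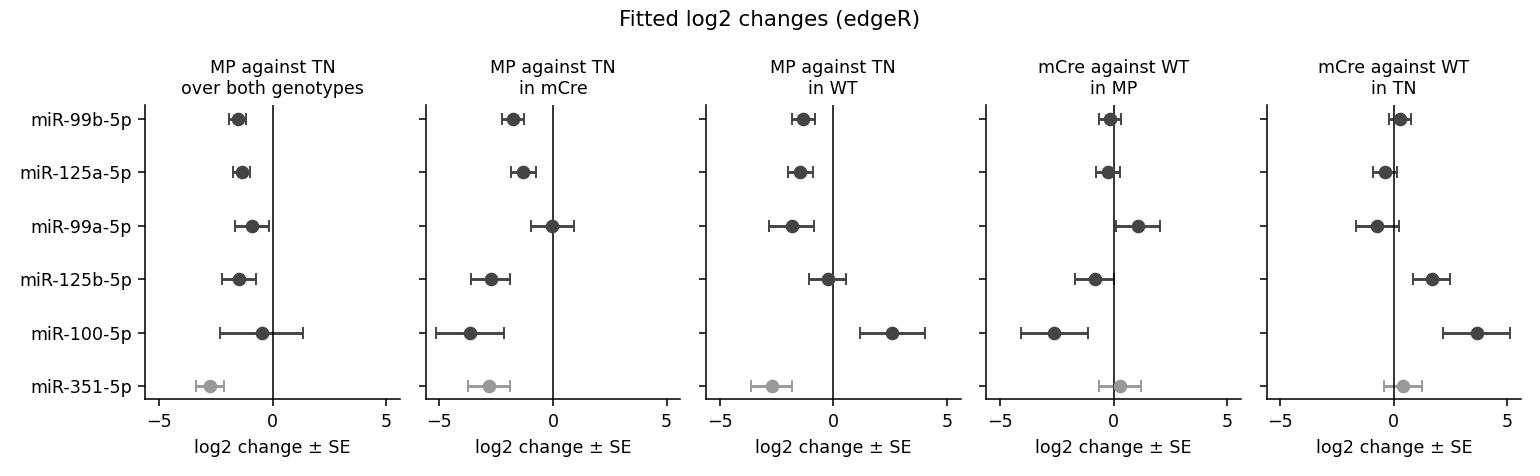
Points give fitted edgeR log2 changes and bars 1 SE either side, with 1 panel per comparison and miR-351-5p in grey. miR-99b-5p and miR-125a-5p lie between -1.76 and -1.30 in the 3 panels of MP against TN and between -0.39 and 0.28 in the 2 panels of mCre against WT, and miR-100-5p has the widest bars.

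The comparison of mCre with WT asks what the genotype does to these miRNAs within a subset. In MP cells the chromosome 17 pair differed little in value, at a log2 change of -0.17 ± 0.49 (SE) for miR-99b-5p and -0.24 ± 0.54 for miR-125a-5p, with edgeR adjusted p of 0.889 and 0.842. Leaving out mCre MP replicate 1 gave 0.11 and 0.01 for the pair, and leaving out WT MP replicate 2 gave 0.07 for miR-125a-5p. miR-99a-5p had 1.07 ± 0.98, with both mCre MP libraries above both WT MP libraries, as for 27.2% of all tested miRNAs. miR-100-5p had -2.61 ± 1.48, with both mCre MP libraries below both WT MP libraries, as for 37.4% of all. Its value was -1.71 without mCre MP replicate 1 and -6.74 without mCre MP replicate 2, where the remaining mCre MP library had 0 counts. miR-125b-5p had -0.83 ± 0.85 and overlapped by a small margin, at 4.67 CPM in mCre MP replicate 2 and 4.59 in WT MP replicate 1. The edgeR adjusted p of these 3 were 0.625, 0.446 and 0.645. In edgeR 0% of miRNAs passed, 41 had an unadjusted p under 0.05 with 0 members among them, and DESeq2 called 0.

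In TN cells the pair again had small values, 0.28 ± 0.49 (SE) for miR-99b-5p and -0.39 ± 0.54 for miR-125a-5p on the log2 scale, and both overlapped between genotypes. miR-100-5p had 3.64 ± 1.46 and miR-125b-5p 1.66 ± 0.82, with both mCre TN libraries above both WT TN libraries, which was so for 15.7% of all tested miRNAs. miR-99a-5p had -0.73 ± 0.95 with overlap. The edgeR adjusted p was 0.957 for each of the 5. Without the 2 doubtful libraries, leaving 1 library in each TN group and the spread taken from the MP groups, miR-100-5p had 1.52, miR-125b-5p 0.45, miR-99a-5p 0.52, miR-99b-5p 0.75 and miR-125a-5p -0.49. Without WT TN replicate 1, miR-100-5p had 7.76, against a WT TN library at a rounded count of 0 (0.5 as deposited). Without the library labelled mCre TN replicate 2, miR-100-5p had 2.24 and miR-125b-5p 0.63. For both miRNAs the replicate 2 libraries lie farthest apart, at 13.9 and 0 CPM for miR-100-5p and 39.9 and 6.76 CPM for miR-125b-5p in mCre TN and WT TN as labelled. Their direction in TN therefore depends on these labels being right. In edgeR 0% passed, 12 miRNAs had an unadjusted p under 0.05 with 1 member among them, and DESeq2 called 0. Over both subsets together 0% passed as well, 5 had an unadjusted p under 0.05 with 0 members, DESeq2 called 0, and the members' median log2 change was 0.15 beside -0.09 for all. These medians were -0.34 and -0.16 without both doubtful TN libraries.

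Whether the MP against TN change itself differs between genotypes was tested as an interaction, mCre minus WT. miR-100-5p had the farthest value among the members, -6.25 ± 2.07 (SE) on the log2 scale, with an unadjusted p of 0.0168 and an edgeR adjusted p of 0.301. miR-125b-5p had -2.49 ± 1.18 with an edgeR adjusted p of 0.353, and miR-99a-5p 1.80 ± 1.36 with 0.513. Without both doubtful TN libraries the values were -4.13, -1.29 and 0.50. With 1 library left out, miR-100-5p ran from -10.46 without WT TN replicate 1 to -4.87 without the library labelled mCre TN replicate 2. Its rounded counts were 0 and 3 in mCre MP and 4 and 0 in WT TN, so the sizes of its values here are no bounds. In edgeR 0% of miRNAs passed, 54 had an unadjusted p under 0.05 with 1 member among them, and DESeq2 called 18, without an adjusted p for miR-100-5p.

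Ratios within a library do not depend on scaling and compare cluster mates directly. The log2 ratio of miR-125a-5p to miR-99b-5p was -0.23 and -0.31 in mCre MP, -0.36 and -0.09 in WT MP, -1.40 and -0.16 in mCre TN, and -0.16 and -0.01 in WT TN. Of the 8 libraries, 7 lay between -0.36 and -0.01 and mCre TN replicate 1 stood below them. The means were -0.25 ± 0.12 in MP and -0.43 ± 0.65 in TN (SD over 4 libraries each), and the exact two-sided permutation test gave p = 0.914. The let-7e-5p guide, from the hairpin between them, behaved less evenly. Its log2 ratio to miR-99b-5p was 3.19 and 2.45 in mCre MP, 1.13 and 1.04 in WT MP, 0.27 and 0.24 in mCre TN, and 0.98 and 1.37 in WT TN. The mCre MP libraries were highest and the other MP libraries fell among the WT TN values. The means were 1.95 ± 1.05 in MP and 0.72 ± 0.55 in TN, with an exact permutation p of 0.114 and an adjusted p of 0.914 over the 8 ratios tested, where 0.0286 is the smallest p that 4 against 4 libraries allow. Near-identical let-7 strands can share reads, so the let-7e-5p value is uncertain to that extent. None of the 3 tested let-7 guides of the clusters, let-7a-5p, let-7c-5p and let-7e-5p, passed in any of the 7 edgeR comparisons.

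For strands of the wide clusters, ratios varied more between libraries than that of miR-125a-5p to miR-99b-5p. These strands had fewer reads. In mCre MP replicate 1, miR-100-5p had 0 counts and miR-125b-5p 6, beside 89 for miR-99b-5p and 76 for miR-125a-5p. At such counts, counting error and the pseudocount of 0.5 add to the spread, and their part in it was not tested. The log2 ratio of miR-125b-5p to miR-99a-5p averaged -0.94 ± 1.45 in MP and -0.17 ± 2.49 in TN (SD over 4 libraries each; exact permutation p = 0.629), and the library labelled mCre TN replicate 2 stood highest at 3.46. That of miR-100-5p to miR-99a-5p, which lie in different clusters, averaged -2.66 ± 2.54 in MP and -2.70 ± 3.32 in TN (exact permutation p = 0.971). Among other mates in the wide clusters, miR-125b-5p to miR-100-5p had an SD of 1.51 in MP and 0.93 in TN. For miR-99a-5p to let-7c-5p the SDs were 0.76 and 1.27. These are near the SDs of let-7e-5p to miR-99b-5p, 1.05 and 0.55. Once both doubtful TN libraries were left out, the MP minus TN difference was 0.53 for miR-125a-5p to miR-99b-5p, 1.32 for let-7e-5p to miR-99b-5p, 0.00 for miR-125b-5p to miR-99a-5p and 0.78 for miR-100-5p to miR-99a-5p, beside 0.19, 1.24, -0.77 and 0.05 with all libraries. The adjusted p of all 8 ratios lay between 0.914 and 0.971.

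The opposite strands of the hairpins were nearly absent. miR-99a-3p, miR-100-3p and miR-125b-1-3p had 0 counts, where a count of 0 allows up to 3, and miR-125b-2-3p had 3. None of the 6 minor strands passed the filter on low counts. The Mir99b 3p strand made up 7 counts beside 724 of the 5p strand in MP, or 0.958% (Wilson 95% interval 0.465% to 1.96%), and 22 beside 2595 in TN, or 0.841% (0.556% to 1.27%). For Mir125a the share was 3.9% in MP (2.66% to 5.69%, 25 counts beside 616) and 1.47% in TN (0.997% to 2.16%, 25 beside 1677). By library it was 12.6% and 4.93% in mCre MP, 0.61% and 2.42% in WT MP, 1.58% and 0.941% in mCre TN, and 1.6% and 1.8% in WT TN. The pooled MP value thus leans on the mCre MP libraries, while a WT MP library had the lowest share of all, and the 2 subsets overlapped. The counts of miR-99b-3p and miR-125a-3p were equal in WT MP (1 and 6), mCre TN (8 and 4) and WT TN replicate 1 (7). They differed in both mCre MP libraries and in the library labelled WT TN replicate 2. The cause of the equal counts was not tested.

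Across the 8 libraries the abundant members moved together, miR-125b-5p followed them less closely, and miR-99a-5p and miR-100-5p hardly did. These correlations of log2 CPM describe 8 points that share library scaling and depth. The points also fall into MP and TN, so r between miRNAs that differ between the subsets holds that difference too. Few reads lie behind the r of miR-100-5p. Pearson's r was 0.86 between miR-99b-5p and miR-125a-5p, and miR-351-5p had 0.87 and 0.85 with them. miR-125b-5p had 0.69 with miR-99b-5p and 0.65 with miR-125a-5p, and miR-100-5p had 0.18 and 0.08. miR-99a-5p had only 0.30 with miR-99b-5p and was opposed to miR-100-5p, at -0.72, and to miR-125b-5p, at -0.45, its neighbour in the chromosome 16 cluster. miR-100-5p and miR-125b-5p, neighbours on chromosome 9, had 0.73. With miR-29a-3p, the family in which the 2 TN libraries stood apart, r was -0.91 for miR-99a-5p, 0.85 for miR-100-5p and 0.68 for miR-125b-5p, but 0.03 for miR-99b-5p and 0.16 for miR-125a-5p. The part of miR-29 in these patterns was not tested.

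**Figure D4:**
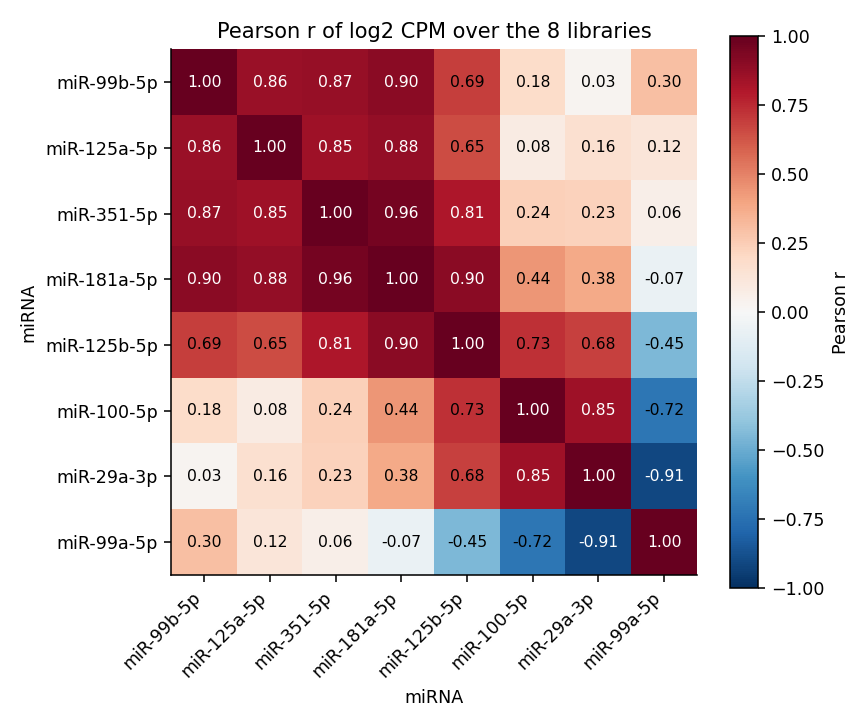
The matrix gives Pearson's r of log2 CPM over the 8 libraries for the 5 members, miR-351-5p, miR-181a-5p and miR-29a-3p, in red above 0 and blue below 0. miR-99b-5p, miR-125a-5p, miR-351-5p and miR-181a-5p form a block at 0.85 to 0.96, and miR-99a-5p stands opposite miR-29a-3p at -0.91 and miR-100-5p at -0.72.

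Among tested miRNAs outside the members, the profile of miR-99b-5p was most like those of miR-211-5p (r = 0.97 over the 8 libraries), miR-181a-2-3p (0.96) and miR-1198-3p (0.94). That of miR-125a-5p was most like miR-211-5p (0.94), miR-181a-2-3p (0.89) and miR-181a-5p (0.88). miR-125b-5p was nearest to 3 miR-181 guides, miR-181b-5p (0.93), miR-181d-5p (0.92) and miR-181a-5p (0.90). The rarer pair had other neighbours. miR-99a-5p was nearest to miR-467a-5p and miR-467b-5p (0.97 each) and miR-1306-3p (0.80), and miR-100-5p to miR-296-5p (0.96), miR-150-5p (0.96) and miR-342-3p (0.95), the last 2 being abundant lymphocyte miRNAs. The mean profile of the 5 members was nearest to miR-181a-5p (0.97), followed by miR-1198-3p, miR-181b-5p and miR-700-5p (0.96 each) and miR-450b-3p (0.94). Some of these neighbours rest on few reads. Over the 8 libraries miR-1198-3p was at 0 to 3.32 CPM, miR-700-5p at 0 to 5.89 and miR-1306-3p at 0.27 to 4.29. In MP, miR-450b-3p was at 0 to 0.818 CPM.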

How the data were processed

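Small RNA libraries were made with a ligation-based kit from Trizol RNA, per the labels' protocols. The authors deposited 1 table of expected counts per mature miRNA and precursor (2128 rows, all 8 sample columns used). The build was mm10, per the submitters' processing notes; aligner, counter and miRNA annotation: not given in the sources used here. Rows of 1 mature name were summed and rounded to whole counts. Low counts were filtered with filterByExpr (minimum count 10, minimum total 15) and libraries scaled by TMM. The test was edgeR 4.0.16's quasi-likelihood F test (R 4.3.3), with Benjamini-Hochberg adjustment over 382 miRNAs at 0.05. Runs with libraries left out were filtered anew and adjusted over 426 to 444 miRNAs, and the run with no filter over 877. One fit used the 4 groups (4 residual degrees of freedom), and an additive fit of subset and genotype (5) gave the comparisons over both genotypes or both subsets. Log2 CPM for correlations used a prior count of 2, and ratios a pseudocount of 0.5. Alternatives were RLE factors, total counts, TMM without let-7, no filter, DESeq2 1.42.0, a replicate block and left-out libraries. The edgeR test was also run on simulated counts, and the outcome is not given here. Intervals, and the limit of 3 counts behind a 0, hold only counting error. Ligation can favour some strands, which bears on levels compared between miRNAs. Named miRNAs were the 5 members, their minor strands, cluster mates, seed relatives and nearest profiles (3 per member and 5 for the mean). Members and lists were chosen with earlier results of these data known.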

Additional observations from a re-analysis of the deposited data

How the results depend on the processing

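The number of members past the threshold in MP against TN over both genotypes was 0, where 9 of 382 miRNAs were called. It was 1 with RLE factors, where 10 of 382 were called, and 2 in DESeq2, where 26 of 382 were. With 1 library left out it was 0 to 2, the 2 being without the library labelled WT TN replicate 2, where 41 of 437 were called. Without both doubtful TN libraries it was 1, where 49 of 433 were called. Within mCre cells it was 0, but 2 in DESeq2, 0 to 1 with 1 library left out, and 1 without both doubtful TN libraries. DESeq2 called 41 of 382 miRNAs there, and totals with libraries left out follow in the next paragraph. The number of members called was 0 in the other comparisons under every alternative run. Over 15 alternatives the log2 change over both genotypes ran from -1.74 to -1.42 for miR-99b-5p, -1.59 to -1.08 for miR-125a-5p, -1.98 to -1.05 for miR-125b-5p and -1.60 to -0.61 for miR-99a-5p. The following changed sign, and the cause was not tested. With 1 library left out, the log2 change of miR-100-5p over both genotypes ran from -1.81 to 0.72, that of miR-125b-5p in WT from -0.94 to 0.22, and that of miR-99a-5p in mCre from -0.98 to 2.05. Likewise mCre against WT in MP ran from -0.44 to 0.11 for miR-99b-5p and -0.61 to 0.07 for miR-125a-5p. The MP minus TN difference of the log2 ratio ran from -0.14 to 0.33 for miR-125a-5p to miR-99b-5p, -1.47 to 0.43 for miR-125b-5p to miR-99a-5p and -1.01 to 1.60 for miR-100-5p to miR-99a-5p. miR-99a-5p in mCre had 0.01 with RLE factors and in DESeq2, and 0.28 with the replicate block. Without both doubtful TN libraries, miR-99a-5p in mCre against WT in TN had 0.52, and the log2 ratio of miR-125b-5p to miR-99a-5p differed by 0.00.

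Deviations of same-numbered libraries from their group means had r from -0.32 to 0.41 between groups, over 382 miRNAs. With 2 libraries per group and 2 TN labels in doubt, this cannot show whether the numbers pair samples. With the replicate block, MP against TN over both genotypes called 2 miRNAs in place of 9, with 0 members in either. A block with the WT TN numbers crossed, chosen after seeing the data, called 0 miRNAs in mCre against WT in TN. Over both genotypes 19 miRNAs were called with no filter, 26 in DESeq2 and 49 without both doubtful TN libraries. With 1 library left out the count was 41 for the library labelled WT TN replicate 2 and 0 to 2 for the other 7. Within WT, 6 were called with no filter, 10 in DESeq2, 14 without both doubtful TN libraries, 6 without WT TN replicate 1 and 0 without any other single library. Within mCre, 24 were called with no filter, 41 in DESeq2, 30 without both doubtful TN libraries, 56 without WT TN replicate 1, 2 without mCre TN replicate 1, 41 without the library labelled WT TN replicate 2 and 0 without any other. Without both doubtful TN libraries, mCre against WT called 63 miRNAs in MP and 27 over both subsets. With no filter, 1 was called in mCre against WT in TN and 10 in the interaction, which had 18 in DESeq2 and 68 without WT TN replicate 1. Depth limits miR-100-5p most, with 0 to 40 counts per library.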
